A study of Homo sapiens with 6 samples.

Results

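BIRC6 gave 23 of the 9857 circular RNAs listed in BEAS-2B, an established human cell line derived from the epithelium of the bronchi. The 23 are all circular RNAs (circRNAs, or circles) whose annotated source gene is BIRC6 alone, 14 with known circle names (hsa_circ) and 9 named as new (novel_circ). In a circle the end of one exon is spliced backwards to the start of the same or an earlier exon, and reads over this back-splice junction count it. The series compared 3 libraries of cells kept in 2.0 µM cadmium for 20 weeks with 3 libraries of cells kept at 0.0 µM for the same time. Ribosomal RNA had been removed and linear RNA digested with RNase R, an exonuclease that spares circles, in both groups. No other allele, agent or transgene is given in the labels, and whether replicate libraries stem from different cultures is not stated. P-values therefore reflect library-to-library spread alone, and that spread may be technical.

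BIRC6 encodes a very large inhibitor of apoptosis protein, also known as BRUCE or apollon. A baculoviral IAP repeat (BIR) domain lies in its N-terminal part and a ubiquitin-conjugating domain near its C terminus, and the protein acts as both conjugating enzyme and ligase. It binds and ubiquitinates caspases and the pro-apoptotic proteins DIABLO (SMAC) and HTRA2, and it has roles in autophagy and in the last steps of cell division. RNase R removes the linear messenger RNA, so the values here are amounts of circles relative to other circles.

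Libraries held 133185 to 225769 junction reads, and BIRC6 circles took 296, 183 and 195 of them in the controls (replicates 1 to 3, in this order here and below) and 206, 174 and 230 with cadmium. Every listed circle has reads in each of the 3 libraries of one group or of both, and no value of 1 occurs, so a listed 0 may stand for a single read. Control replicates 1 and 3 stood apart in a measure of junction against non-junction reads that is described further on. Of 14 airway epithelial markers, 0 were host to a listed circle, as were 0 of 7 leukocyte and 0 of 5 endothelial markers, against 3 of 12 fibroblast and mesenchymal markers (COL5A1, ZEB1 and BNC2, together 85 to 140 junction reads per control library and 54 to 81 per cadmium library). Junction reads do not measure linear messenger RNA, so these lists do not check the cell type.

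The gene (ENSG00000115760) lies on chromosome 2 from 32357028 to 32618899 (GRCh38, plus strand). In GENCODE release 29 its full transcript, ENST00000421745.6, has 74 exons and 4857 codons. All 23 circles ended on an exon bound of this transcript, and 22 of the 23 started on one. All their exons were coding, so no circle held the first or the last exon, which carry the untranslated ends. There were 14 distinct starts and 16 distinct ends. A start was shared by 13 circles, from 4 starts, and an end by 12 circles, from 5 ends.

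The start of exon 2 was the bound most often used. It was joined to the ends of exons 3, 5, 6, 8, 9 and 10, which gave 6 nested circles. The intron before exon 2 is 20101 bases long and is the second longest of the gene, whose median intron has 1887 bases and whose longest has 25674. The junctions of these 6 circles are shown first, because they carry the shared start. Each sequence gives the last 20 bases of the downstream exon in lower case and the first 20 bases of the upstream exon in capitals, read 5′ to 3′ from the GENCODE 29 transcript.
novel_circ_0024235, exons 2 to 3, chr2:32377588-32380290: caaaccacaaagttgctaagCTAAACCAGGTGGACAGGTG
hsa_circ_0053440, exons 2 to 5, chr2:32377588-32392150: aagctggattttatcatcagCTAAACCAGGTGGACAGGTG
hsa_circ_0053441, exons 2 to 6, chr2:32377588-32395593: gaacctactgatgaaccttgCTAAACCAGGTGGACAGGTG
hsa_circ_0007337, exons 2 to 8, chr2:32377588-32401623: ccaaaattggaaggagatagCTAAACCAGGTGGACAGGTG
hsa_circ_0000989, exons 2 to 9, chr2:32377588-32406557: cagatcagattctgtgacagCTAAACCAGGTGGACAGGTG
hsa_circ_0053442, exons 2 to 10, chr2:32377588-32416163: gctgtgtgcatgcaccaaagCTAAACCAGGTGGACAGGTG
The capitals are the same in all 6, so only the lower-case part tells these circles apart, and a junction read has to reach it to be assigned.

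Further junctions are shown for the remaining abundant circles, for the circles listed in only 1 group, and for the start that lies off an exon bound.
hsa_circ_0002408, exons 36 to 37, chr2:32478635-32479617: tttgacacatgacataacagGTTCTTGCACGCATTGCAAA
hsa_circ_0008585, exons 72 to 73, chr2:32607455-32611582: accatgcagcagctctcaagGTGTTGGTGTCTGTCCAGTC
hsa_circ_0000990, exons 9 to 10, chr2:32406499-32416163: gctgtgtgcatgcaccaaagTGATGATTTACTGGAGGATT
hsa_circ_0008899, exons 62 to 66, chr2:32543241-32575366: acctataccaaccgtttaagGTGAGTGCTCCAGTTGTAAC
novel_circ_0024284, exons 53 to 54, chr2:32510586-32513154: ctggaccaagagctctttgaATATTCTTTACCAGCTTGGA
The circle hsa_circ_0000990 shares its lower-case part with hsa_circ_0053442, since both end after exon 10. The circle novel_circ_0024284 starts 60 bases inside exon 53, and the 2 exon bases just before that start are AG, the letters that stand at the end of most introns. It was counted with 3, 0 and 0 reads in the control replicates and 3, 2 and 3 with cadmium, beside hsa_circ_0053829, which uses the annotated start of exon 53.

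**Figure D1:**
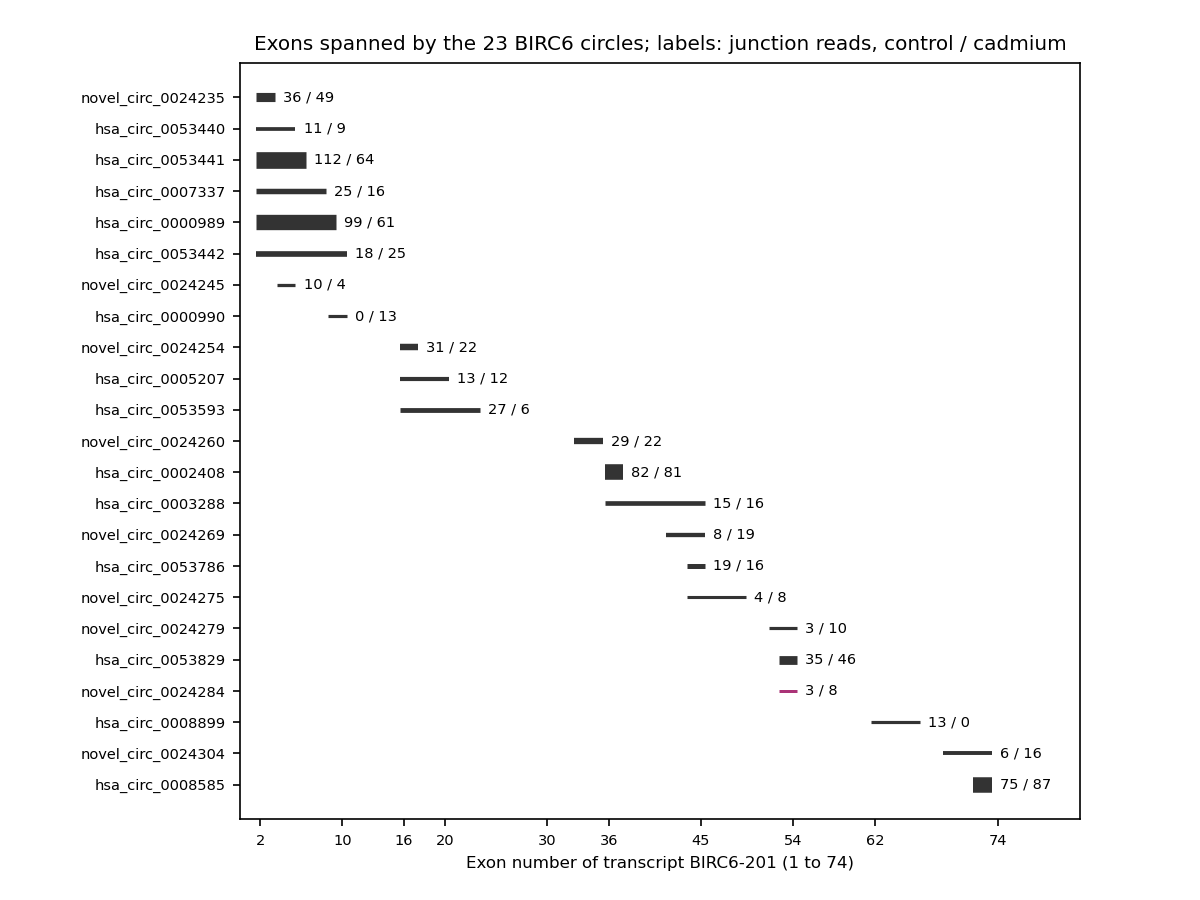
Exons of the full BIRC6 transcript (x axis, exon number) spanned by each of the 23 circles (rows, in genomic order). Bar thickness grows with the total of junction reads over the 6 libraries, the labels give the summed reads of the 3 control and the 3 cadmium libraries, and the purple bar is the circle that starts inside exon 53. The thick bars lie at exons 2 to 9, 36 to 37 and 72 to 73, and no circle covers exons 11 to 15, 24 to 32 or 55 to 61.

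The circles covered 47 of the 74 exons and left out 27. Besides exons 1 and 74, the exons in no circle were 11 to 15, 24 to 32, 50 to 51, 55 to 61 and 67 to 68. Each circle spanned 2 to 10 exons (median 4), and 9 spanned exactly 2. Spliced lengths, taken over all annotated exons between the bounds, ran from 262 to 2547 bases with a median of 626. These lengths equal the deposited ones for 21 of 23 circles. The exons listed for 11 circles in the deposited annotation were fewer than the annotated ones, so which inner exons a circle holds was not measured. By length over all annotated exons, 8 of the 23 circles are a multiple of 3 bases, among them hsa_circ_0000989 and hsa_circ_0008585. If they hold all these exons, they would keep the reading frame around the circle. The circles from exon 2 begin at codon 109 and reach up to codon 957 of the protein. At the other end of the gene hsa_circ_0008585 covers codons 4691 to 4798.

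Junction reads were spread over many BIRC6 circles, with no single leader. Summed over the 6 libraries, hsa_circ_0053441 had 176 of 1284 reads, hsa_circ_0002408 had 163, hsa_circ_0008585 had 162 and hsa_circ_0000989 had 160. These 4 circles took 51.5% of the gene's junction reads. The next were novel_circ_0024235 with 85 and hsa_circ_0053829 with 81, and the 6 circles with a mean of 10 or more reads per library took 64.4%. Each of the remaining 17 had 11 to 53 reads in all.

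The leading circle took 13.7% of the gene's reads, the lowest such share among the 22 host genes with 15 or more listed circles. The next lowest shares were 14.2% for TRIM37, with 20 circles, and 15.5% for SMARCC1, with 19. At the other end FAM13B, with 16 circles, gave 84.4% of its reads to its leader, and TRIO, which has 26 circles, gave 37.0%. The gap between BIRC6 and TRIM37 is small, and no test was made of this order. Over the 4 leading circles together the share was lower in PPP6R3 (42.5%), SMARCC1 (44.4%), TRIM37 (44.5%) and C5orf42 (49.1%) than in BIRC6 (51.5%). Reads per circle were 55.8 in BIRC6, 50.7 in TRIM37 and 48.1 in SMARCC1, against 618.8 in FAM13B and 165.9 in TRIO. Of the 23 BIRC6 circles 6 (26.1%) used the most shared start. That share was lower in 13 of the 21 other genes, down to 13.3% for PPP6R3 and EIF4G3, and higher in 8, up to 53.3% for MIB1, PICALM and RARS. BIRC6 also had the most exons in the transcript used for this count, 74, against 13 to 64 in the 20 others that could be matched.

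**Figure D2:**
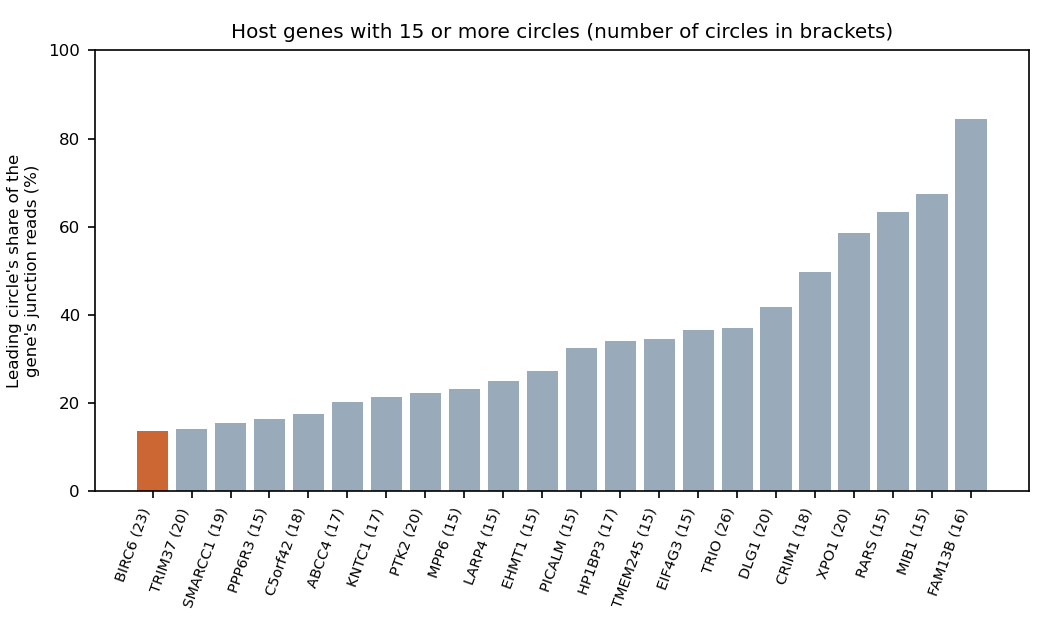
Share of a gene's junction reads, over the 6 libraries, taken by its leading circle (y axis, percent) for the 22 host genes with 15 or more circles (x axis, number of circles in brackets). BIRC6, in orange, is at 13.7% and FAM13B at 84.4%.

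The total of BIRC6 circles overlapped between cadmium-exposed and control cells. Junction reads scaled to library size (CPM, with TMM scaling factors), summed over all 23 circles, were 1365, 1341 and 1223 in controls and 1567, 1311 and 1475 with cadmium. The groups overlapped, because cadmium replicate 2 lay below control replicates 1 and 2. The means were 1309 ± 76.2 CPM without and 1451 ± 130 CPM with cadmium (SD, n = 3 per group), and the log2 fold change was 0.15 (SE 0.13, edgeR adjusted p = 0.672), or 0.093 without control replicate 3 and 0.076 without cadmium replicate 1. Of 3008 host genes 7 passed an adjusted p of 0.05 in this test (0.233%), and BIRC6 was not among them. In such bulk libraries fewer cells with a circle and fewer copies per cell cannot be told apart. As a share of all junction reads BIRC6 took 0.131%, 0.133% and 0.118% in controls (95% Wilson intervals 0.117 to 0.147%, 0.115 to 0.153% and 0.103 to 0.136%). With cadmium it took 0.155%, 0.128% and 0.144% (0.135 to 0.177%, 0.111 to 0.149% and 0.126 to 0.163%). These intervals cover counting error only, since no molecular identifiers tell copies of a molecule apart. The difference of 0.0149 percentage points had a two-sided exact permutation p of 0.3 (0.3 after Benjamini-Hochberg adjustment over the 3 share tests made). The smallest p that 3 libraries against 3 can give is 0.1.

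Of the 23 circles 13 passed the filter on low counts and 10 did not. None of the 13 passed the test (edgeR adjusted p 0.625 to 0.973), where 5 of all 6182 circRNAs tested did (0.0809%). At an unadjusted p under 0.05 the number was 0 of 13, where 507 of 6182 (8.20%) passed. Limma on log2(TPM + 1) called 0 of the 13, and DESeq2 called 0 of the 5 for which it gave an adjusted p, with none given for the other 8. Log2 fold changes were above 0 for 7 and below 0 for 6, with a median of 0.27. The median over all circRNAs tested was 0.0097, and 50.7% of them were above 0. Standard errors ran from 0.26 to 0.96.

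In 3 of the 13 circles every cadmium library lay above every control library, and in 0 every cadmium library lay below. Over all circRNAs tested the groups did not overlap for 15.3% (7.52% higher and 7.78% lower). The highest of the 3 was hsa_circ_0008585, from the 3′ end of the gene, at 130.4, 167 and 138 CPM in controls and 177, 203 and 223 CPM with cadmium. The lowest cadmium library exceeded the highest control by a margin smaller than the SD of either group. The means were 145 ± 19.2 CPM in controls and 201 ± 22.95 CPM with cadmium (SD, n = 3 per group), and the log2 fold change was 0.48 (SE 0.26, edgeR adjusted p = 0.669). The shortest circle from exon 2, novel_circ_0024235, stood at 76.4, 72.6 and 54.1 CPM in controls and 148, 101 and 95.7 CPM with cadmium. Its log2 fold change was 0.74 (SE 0.37, edgeR adjusted p = 0.625), and 0.49 without cadmium replicate 1. The third, hsa_circ_0053829 of exons 53 to 54, stood at 76.4, 43.5 and 72.2 CPM in controls and 104, 79.7 and 134 CPM with cadmium. Its log2 fold change was 0.69 (SE 0.38, edgeR adjusted p = 0.669), and 0.46 without cadmium replicate 3.

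The pair of long, abundant circles from exon 2 had lower means with cadmium, with groups that overlapped. The circle hsa_circ_0053441 was at 252, 196 and 174 CPM in controls and 199.7, 94.1 and 153 CPM with cadmium. Cadmium replicate 1 thus lay above control replicates 2 and 3. Its log2 fold change was -0.49 (SE 0.30, edgeR adjusted p = 0.702), and leaving out control replicate 1, cadmium replicate 1 or cadmium replicate 2 gave -0.31, -0.78 and -0.27. The circle hsa_circ_0000989 was at 229, 210.4 and 114 CPM in controls and 155, 145 and 128 CPM with cadmium. Here control replicate 3 was the lowest of all 6 libraries, and the log2 fold change of -0.38 (SE 0.31) had an edgeR adjusted p of 0.785. It was -0.18 without control replicate 1 and -0.65 without control replicate 3. For hsa_circ_0002408 of exons 36 to 37 the values were 139, 138 and 193 CPM in controls and 199.7, 174 and 191 CPM with cadmium, with control replicate 3 among the cadmium libraries. The log2 fold change of 0.27 (SE 0.27) had an edgeR adjusted p of 0.835, and was 0.16 without control replicate 2, 0.17 without control replicate 1 and 0.42 without control replicate 3. Within each group the means of these 3 circles and hsa_circ_0008585 lay between 145 and 207 CPM in controls and between 143 and 201 CPM with cadmium. Neighbours in this order differed by less than the larger of their SDs.

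**Figure D3:**
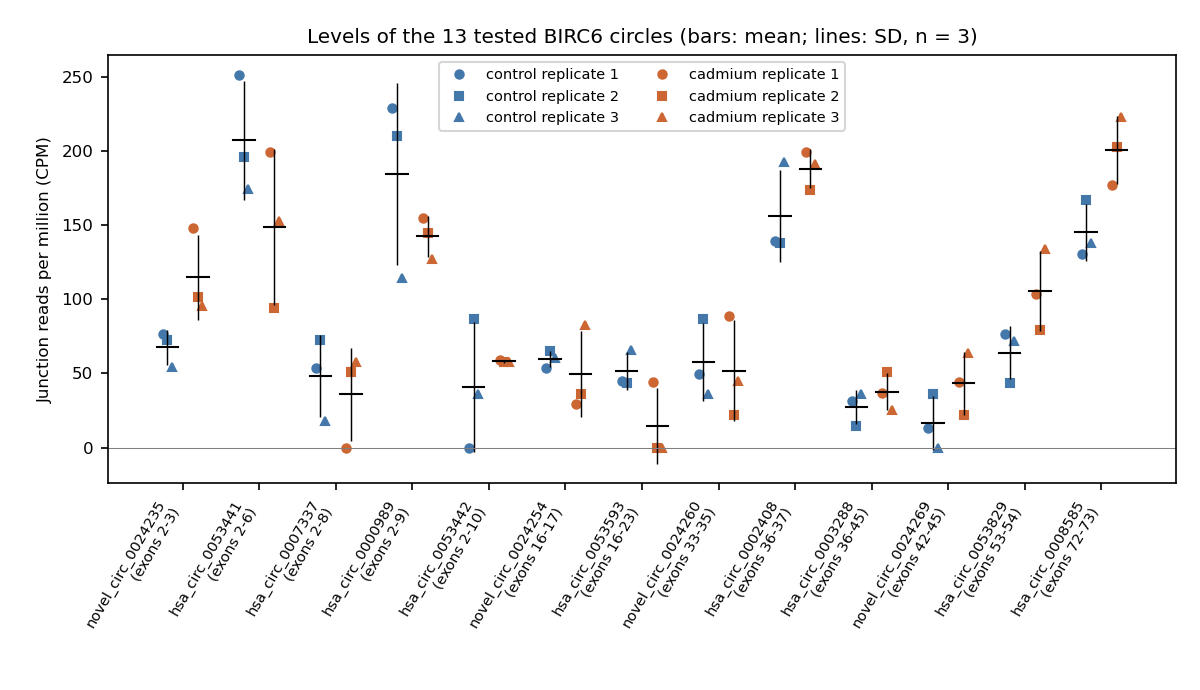
CPM of junction reads (y axis) of the 13 BIRC6 circles that passed the low-count filter (x axis, in genomic order), by library, with group means (bars) and SDs (lines, n = 3). Control and cadmium points overlap for 10 circles, and all cadmium points lie above all control points for novel_circ_0024235, hsa_circ_0053829 and hsa_circ_0008585.

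Several of the less abundant tested circles were listed at 0 in a library, and their fold changes rest on that value. Each is listed only because the other group is above 0 in all 3 libraries. That favours a fold change towards the other group, and the p-values do not allow for it. The circle hsa_circ_0053593 of exons 16 to 23 had 10, 6 and 11 reads in controls and 6, 0 and 0 with cadmium, for a log2 fold change of -1.81 (SE 0.96, edgeR adjusted p = 0.656). Without cadmium replicate 1 both remaining cadmium libraries are at 0, so no fold is given for that fit (edgeR adjusted p = 0.498), and without cadmium replicate 3 it was -1.22. The circle hsa_circ_0053442 of exons 2 to 10 had 0, 12 and 6 reads in controls and 8, 8 and 9 with cadmium. Its 0 stands in the deepest library, where the other controls imply 13.4 reads. Its log2 fold change was 0.65, and -0.054 without control replicate 1 (edgeR adjusted p = 0.864 and 0.992). The circle hsa_circ_0007337 of exons 2 to 8 had 12, 10 and 3 reads in controls and 0, 7 and 9 with cadmium. Its log2 fold change was -0.37, and 0.15 without cadmium replicate 1 (edgeR adjusted p = 0.925 and 0.972). The circle novel_circ_0024269 of exons 42 to 45 had 3, 5 and 0 reads in controls and 6, 3 and 10 with cadmium. At 1.44 (SE 0.95), its log2 fold change had an edgeR adjusted p of 0.722. It was 2.39 without control replicate 2, 0.87 without control replicate 3 and 0.26 without control replicates 1 and 3.

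The other 3 tested circles were near the median change or imprecise. They were novel_circ_0024254 of exons 16 to 17, with 12, 9 and 10 reads in controls and 4, 5 and 13 with cadmium, novel_circ_0024260 of exons 33 to 35, with 11, 12 and 6 against 12, 3 and 7, and hsa_circ_0003288 of exons 36 to 45, with 7, 2 and 6 against 5, 7 and 4. Their log2 fold changes were -0.23, -0.13 and 0.41. The sign for novel_circ_0024260 turned without control replicate 2 (0.21) and without cadmium replicate 2 (0.21). Leaving out 1 library gave -0.85 to -0.013 for novel_circ_0024254 (without cadmium replicates 3 and 1 in turn) and 0.12 to 0.61 for hsa_circ_0003288 (without control replicate 2 and cadmium replicate 3 in turn).

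A pair of circles was listed in only 1 group, and neither had enough reads to be tested. The 2-exon circle hsa_circ_0000990 had 4, 6 and 3 reads with cadmium and 0, 0 and 0 in controls. Against a floor of 3 reads over the control group it was 5.34-fold higher with cadmium, with reads taken relative to the group's total. The circle hsa_circ_0008899 of exons 62 to 66 had 4, 3 and 6 reads in controls and 0, 0 and 0 with cadmium. Against the same floor over the cadmium group it was 3.51-fold lower with cadmium. These folds are not lower bounds, because counting error is left out and a listed 0 can stand where more reads are implied. For hsa_circ_0053442 in control replicate 1 the implied number was 13.4 reads. Since a listed circle is above 0 throughout at least one group, any circle with reads in a single group shows such a split. The share of such circles among all 9857 circRNAs was not counted, so whether 2 of 23 is usual cannot be said. When the low-count filter was left off, these 2 of 23 had an unadjusted p under 0.05 by edgeR, as did 10.3% of the 9857 circRNAs in that fit. The adjusted threshold was passed by 0 of 23 (lowest edgeR adjusted p = 0.119), against 0.0507% of all.

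The other 8 untested circles had 11 to 35 reads in all. Both hsa_circ_0053440 (5, 3 and 3 reads in controls, 4, 3 and 2 with cadmium) and hsa_circ_0053786 (4, 4 and 11 against 3, 10 and 3) were above 0 in all 6 libraries. The circle hsa_circ_0005207 had 6, 0 and 7 reads in controls and 5, 3 and 4 with cadmium, and novel_circ_0024245 had 5, 3 and 2 against 0, 0 and 4. Along with novel_circ_0024284, a further 3 were at 0 in control replicates 2 and 3 and above 0 in control replicate 1 and all cadmium libraries. These were novel_circ_0024275 (4, 0 and 0 against 4, 2 and 2), novel_circ_0024279 (3, 0 and 0 against 5, 2 and 3) and novel_circ_0024304 (6, 0 and 0 against 4, 3 and 9). Counting hsa_circ_0000990, 5 BIRC6 circles were at 0 in both of these control libraries. A circle at 0 in a control library is listed only if all 3 cadmium libraries are above 0. Zeros on the control side are thus built in for these circles, and the share of such circles among all circRNAs was not counted. For the 4 with reads in control replicate 1, the pooled other controls imply 1.06 to 2.73 reads at each of these zeros. The pooled controls include the other zero, which lowers these implied numbers.

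How the gene's reads divide among its circles was compared next. The circle with the most reads, hsa_circ_0053441, took 18.9%, 14.8% and 14.9% of BIRC6 junction reads in control replicates 1 to 3 (95% Wilson intervals 14.9 to 23.8%, 10.3 to 20.6% and 10.6 to 20.5%). With cadmium it took 13.1%, 7.47% and 10.4% (9.17 to 18.4%, 4.42 to 12.4% and 7.11 to 15.1%). Each cadmium library lay below each control. The means were 16.2% ± 2.37 and 10.3% ± 2.82 (SD, n = 3 each), a difference of -5.84 percentage points (two-sided exact permutation p = 0.1, adjusted p = 0.3). The p of 0.1 is the smallest this test can give. The circle was picked for its total over these same libraries, where the top 4 circles had 160 to 176 reads each. Of its 176 reads, 112 were from controls. A choice led by control reads favours a lower share with cadmium, and the p does not allow for this. The intervals of single libraries overlapped across the groups, except that of cadmium replicate 2 with that of control replicate 1.

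Which circle ranked first changed from library to library. It was hsa_circ_0053441 in control replicate 1, hsa_circ_0000989 in control replicate 2 and hsa_circ_0002408 in control replicate 3. In cadmium replicate 1 hsa_circ_0053441 and hsa_circ_0002408 tied, and hsa_circ_0008585 led in cadmium replicates 2 and 3. With reads pooled by group, hsa_circ_0053441 ranked 1 in controls (112 reads) and 3 with cadmium (64 reads), and hsa_circ_0008585 ranked 4 (75 reads) and 1 (87 reads).

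**Figure D4:**
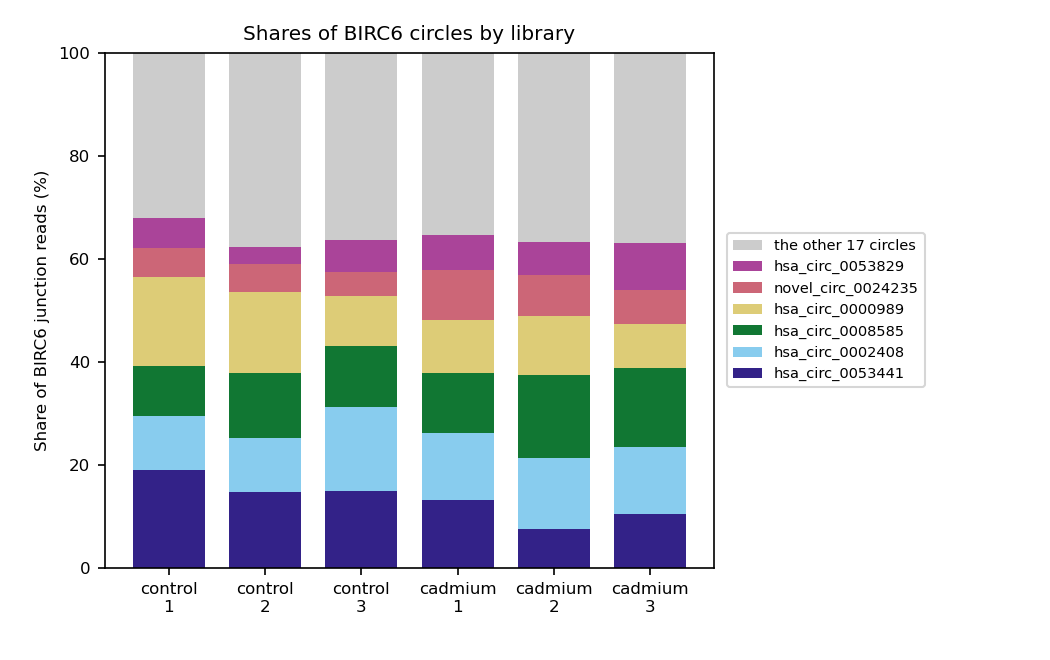
Share of BIRC6 junction reads (y axis, percent) taken by the 6 most abundant circles and by the other 17 together, in each library (x axis). The lowest block, hsa_circ_0053441, is 14.8 to 18.9% in control libraries and 7.47 to 13.1% in cadmium libraries, and the block of hsa_circ_0008585 is 9.80 to 12.6% and 11.7 to 16.1%.

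The 6 circles that start at exon 2 took 47.6%, 49.7% and 35.4% of BIRC6 reads in controls and 38.8%, 37.4% and 34.4% with cadmium. Control replicate 3 lay below 2 of the cadmium libraries, and the other controls above all of them. The means were 44.2% ± 7.75 and 36.8% ± 2.29 (SD, n = 3 each, difference -7.40 percentage points, two-sided exact permutation p = 0.3, adjusted p = 0.3). The difference was -11.8 points without control replicate 3 and -4.66 points without control replicate 2, and with control replicate 2 as the only control it was -12.9 points. Within this family the means differed in direction. The means of hsa_circ_0053441, hsa_circ_0000989 and hsa_circ_0007337 were lower with cadmium and those of novel_circ_0024235 and hsa_circ_0053442 higher, and none of these differences passed the test. The untested hsa_circ_0053440 had means of 20.8 and 21.4 CPM.

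Families with another shared bound are given as a description. The 3 circles that end after exon 54 took 7.77%, 3.28% and 6.15% in controls and 10.7%, 8.62% and 11.7% with cadmium, and 81 of their 105 reads belong to hsa_circ_0053829. The 2 that end after exon 73 took 11.8%, 12.6% and 11.8% in controls and 13.6%, 17.8% and 19.1% with cadmium, and 162 of their 184 reads belong to hsa_circ_0008585. For the 2 that end after exon 5 the shares were 3.38%, 3.28% and 2.56% against 1.94%, 1.72% and 2.61%. For the 2 that end after exon 10 they were 0%, 6.56% and 3.08% against 5.83%, 8.05% and 5.22%. For the 3 that end after exon 45 they were 4.73%, 6.01% and 8.72% against 6.80%, 11.5% and 7.39%. The 3 that start at exon 16 took 9.46%, 8.20% and 14.4% in controls and 7.28%, 4.598% and 7.39% with cadmium. The 2 that start at exon 36 took 12.8%, 11.5% and 19.5% against 15.5%, 17.8% and 14.8%. For the 2 that start at exon 44 the shares were 2.70%, 2.19% and 5.64% against 3.40%, 6.90% and 2.17%. No test was made of these families.

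Shares were tested in 1 fit over all genes, in which the change of each circle is set against that of its host gene (diffSpliceDGE of edgeR). Of 4482 circles from 1347 genes 1 passed the adjusted threshold (0.0223%), and 0 of the 13 BIRC6 circles did (edgeR adjusted p = 0.9999 for each). At an unadjusted p under 0.05 the number was 1 of 13, against 119 of 4482 (2.66%). This was hsa_circ_0053593, whose difference relative to the gene was -1.89 on the log2 scale (edgeR unadjusted p = 0.0244). At 0 in cadmium replicates 2 and 3, it is listed only through the controls. That favours a lower share with cadmium, and the p does not allow for this. The unadjusted p by edgeR became 0.119 when control replicate 3 was left out, 0.109 when cadmium replicate 2 was, and 0.161 when cadmium replicate 3 was, with a difference of -1.26 in the last. Without cadmium replicate 1 it was 0.00025 (adjusted p = 0.333), with both remaining cadmium libraries at 0. For hsa_circ_0053441 the relative difference was -0.57, for hsa_circ_0000989 -0.46, for hsa_circ_0002408 0.18 and for hsa_circ_0008585 0.40. Those for novel_circ_0024235 and hsa_circ_0053829 were 0.66 and 0.61. Taking the 13 together, the test of any unequal change within BIRC6 gave an edgeR adjusted p of 0.876 over 1347 genes (unadjusted p = 0.147). With no low-count filter, when all 23 circles enter, the unadjusted p by edgeR was 0.0016 (adjusted p = 0.0974), and 12.8% of genes were under 0.05. That fit takes in hsa_circ_0000990 and hsa_circ_0008899, each listed in only 1 group, with unadjusted p-values for their shares of 0.00055 and 0.0011 by edgeR. Any listed circle with reads in a single group shows such a split, so no conclusion is drawn from the gene's p in that fit. The gene's unadjusted p by edgeR was 0.0499 with 10 reads in 3 libraries (adjusted p = 0.694, 6.85% of genes) and 0.0178 without cadmium replicate 1 (adjusted p = 0.632, 6.57% of genes). In the fit with the filter none of the 1347 genes passed the adjusted threshold in this test and 74 had an unadjusted p under 0.05 (5.49%).

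The reads at a circle's locus that do not cross its junction give a further readout, although the way they were counted is not stated. A weighted junction share was formed in which each junction read counts as 2 reads, divided by that weighted number plus the non-junction reads. Over the 11 circles above 0 in all 6 libraries it was 49.7%, 24.9% and 53.1% in controls and 37.2%, 32.0% and 31.2% with cadmium. Over all circRNAs with both kinds of reads in every library it was 46.1%, 29.2% and 48.9% in controls and 30.02%, 31.8% and 30.4% with cadmium. Control replicates 1 and 3 were thus the highest at BIRC6 as well, and at 8 of the 11 circles each of these 2 libraries lay above all other 4. The part of this difference between libraries in the values above was not tested, apart from fits without control replicates 1 and 3, in which 0 BIRC6 circles passed the adjusted threshold. Those fits leave 1 control library, which is assumed to vary like the cadmium libraries.

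Along the gene the weighted junction share differed widely between circles. Pooled over the 6 libraries it was 6.30% for hsa_circ_0053440 and 21.0% for novel_circ_0024235, which lie near the 5′ end and had 595 and 638 non-junction reads. It was 40.3% for hsa_circ_0053441, 58.4% for hsa_circ_0000989, 52.5% for hsa_circ_0002408 and 75.9% for hsa_circ_0008585, where non-junction reads numbered 103. In the middle of the gene it was also low for novel_circ_0024254 (22.4%), hsa_circ_0053786 (23.7%) and hsa_circ_0003288 (25.3%). For novel_circ_0024260 it was 37.6% and for hsa_circ_0053829 43.9%, so it did not rise steadily along the gene. Summed over the libraries, the 4 circles from exon 2 in this set had 638 (end at exon 3), 595 (exon 5), 522 (exon 6) and 228 (exon 9) non-junction reads. In control replicate 1 and cadmium replicate 3 the circle ending at exon 5 had more than that ending at exon 3 (110 against 104 and 129 against 96). The lowest library of hsa_circ_0008585 was at 67.96%, and the highest of hsa_circ_0053440 at 10.9%.

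**Figure D5:**
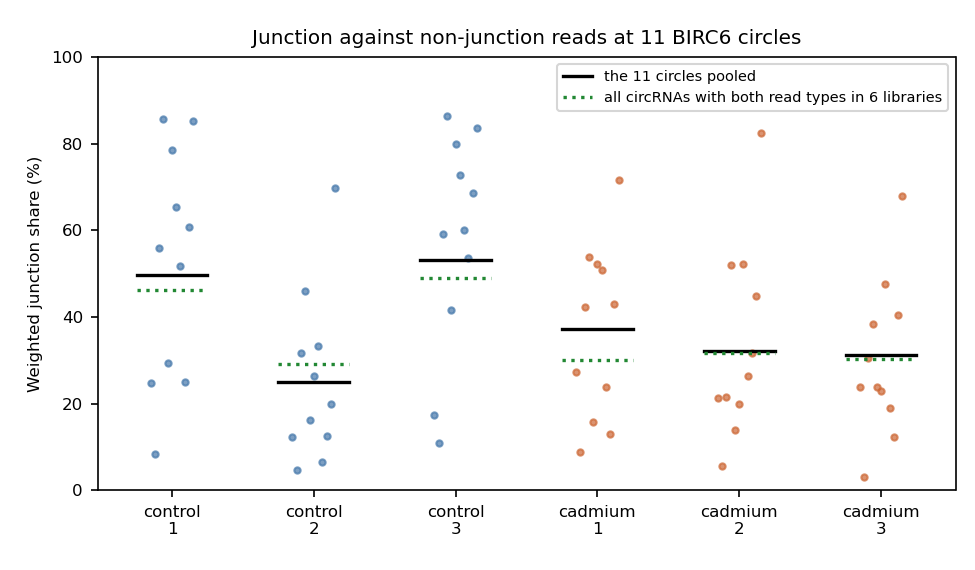
Weighted junction share (y axis, percent) of the 11 BIRC6 circles above 0 in every library (points, in genomic order from left to right within a library), with the value pooled over the 11 (black bar) and over all circRNAs with both kinds of reads in 6 libraries (green dotted bar). Control replicates 1 and 3 are at 49.7% and 53.1% for the 11 circles pooled, and the other 4 libraries at 24.9 to 37.2%.

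Genes around BIRC6 in apoptosis control were looked at through their own circles. Of 49 listed genes (inhibitors of apoptosis, their antagonists, caspases, mitochondrial and receptor death genes, and BIRC6 partners) 16 had listed circles and 13 could be tested. None passed the test over 3008 host genes (0.233% of which did), and at an unadjusted p under 0.05 2 were higher and 0 lower, where 12.5% of all host genes were beyond it (5.88% higher and 6.58% lower). The median log2 fold change of the 13 was 0.07, against 0.0011 for all host genes. The only other family member with circles was BIRC2, which encodes cIAP1, a ubiquitin ligase of death receptor signalling, with 442 ± 37.5 CPM without and 451 ± 46.3 CPM with cadmium (SD, n = 3 per group). The log2 fold change of 0.035 had an edgeR adjusted p of 0.952. Its sign turned when control replicate 1 (-0.036), cadmium replicate 2 (-0.057) or control replicates 1 and 3 together (-0.12) were left out. DIABLO, the mitochondrial antagonist that BIRC6 ubiquitinates, had 92.2, 87.9 and 138 CPM in controls and 83.7, 60.3 and 77.0 with cadmium, all lower, as for 10% of host genes. The log2 fold change of -0.52 (SE 0.37) had an edgeR adjusted p of 0.607, and was -0.30 without control replicate 3.

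The pair at an unadjusted p under 0.05 were RIPK1, a kinase of death receptor complexes, and CASP2, an initiator caspase. RIPK1 had 355, 337 and 345 CPM in controls and 494, 452 and 725 with cadmium, a log2 fold change of 0.69 (SE 0.20) with an edgeR adjusted p of 0.204, and 0.45 without cadmium replicate 3. CASP2 had 69.2, 95.2 and 100.3 CPM in controls and 122, 181 and 205 with cadmium, a log2 fold change of 0.96 (SE 0.33) with an edgeR adjusted p of 0.245. That fold change was 0.78 without control replicate 1 (edgeR unadjusted p = 0.0598) and 0.80 without cadmium replicate 3 (edgeR unadjusted p = 0.0504). Without cadmium replicate 1 it was 1.13. Among partners, RNF41, a ligase that marks BIRC6 for degradation, had a log2 fold change of 0.67, and all 3 cadmium libraries lay above the controls, as for 9.28% of host genes (edgeR adjusted p = 0.506). For USP8, a deubiquitinase, it was -0.26, and 0.12 without cadmium replicate 3. For UBE2Z, a ubiquitin-conjugating enzyme charged by UBA6 as BIRC6 is, it was -0.51, or -0.89 without cadmium replicate 1, and for KIF23, a kinesin of the midbody, 0.07, with the opposite sign without control replicate 3 (-0.016) and without control replicates 1 and 3 (-0.065). The edgeR adjusted p was 0.796, 0.579 and 0.859 for these 3. CASP9, the initiator caspase of the mitochondrial pathway, had 10, 0 and 3 reads in controls and 5, 3 and 10 with cadmium (log2 fold change 0.79, edgeR adjusted p = 0.731). That value was 1.98 without control replicate 1, 0.32 without control replicate 2 and 0.33 without cadmium replicate 3, and with control replicate 2, listed at 0, as the only control no fold is given.

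The host genes whose summed circles followed BIRC6 most closely over the 6 libraries, among 480 with a mean of 500 CPM or more, were ZSWIM6, VWA8, AMBRA1, DGKE and DCBLD2. Pearson's r of log2(CPM + 1) was 0.95, 0.93, 0.92, 0.89 and 0.86. With 6 libraries and 480 genes such values are a description, and the libraries share their depth and RNase R treatment across genes. As for BIRC6, cadmium replicate 1 was the highest library for all 5 genes, with 1103 CPM against 762 to 962 CPM in the other libraries for AMBRA1, which encodes a regulator of autophagy. The genes were picked for following BIRC6 over these libraries, so the shared peak is part of that choice. None of the 5 passed the test (edgeR adjusted p 0.463 to 0.770).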

How the data were processed

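Total RNA of 6 BEAS-2B libraries had been depleted of ribosomal RNA, digested with RNase R and made into stranded libraries, per the labels' protocols. The authors' deposited counts are whole reads over the back-splice junction, for each circRNA in each library. The deposited TPM values equal those counts scaled to a common library total, with no length term, and were used in 1 alternative. The authors' deposited comparison gives group means of normalised reads (a signal), log2 fold changes and p-values, none of which is printed. The submitters' processing notes name hg19, Bowtie, Bowtie2 2.2.8 and DESeq 1.10.1 without saying what each was for, and the tool that called circRNAs was not stated. Positions follow GRCh38, since 22 of 23 BIRC6 starts and 23 of 23 ends lie on GENCODE 29 exon bounds of that build. They are counted from 1.

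Groups came from the treatment label and replicate numbers from the titles. No library was treated as a copy of another: within groups, the chi-square statistic over its degrees of freedom was 1.59 to 2.49. In R 4.3.3, edgeR 4.0.16 tested counts over all circRNAs by quasi-likelihood (TMM, robust fitting, filterByExpr with minimum count 5 and minimum total 15, Benjamini-Hochberg adjusted p under 0.05). Counts summed per host gene were tested likewise, and shares with diffSpliceDGE. Standard errors were worked back from the F statistic. For shares of BIRC6 reads, exact two-sided permutation tests came from scipy 1.17.1. Alternatives were other size factors and filters, DESeq2 1.42.0, a block on the replicate number, limma 3.58.1 on log2(TPM + 1), and leaving out libraries. Tests were tried on simulated counts with known changes. The members, lists and tests were chosen with earlier results of these data known. The text gives every BIRC6 circle, the members of the apoptosis list that are family members or partners of BIRC6 and pass the filter, and the 5 most similar host genes. RIPK1, CASP2 and CASP9 were added after their values were seen.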

Additional observations from a re-analysis of the deposited data

How the results depend on the processing

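No BIRC6 circle passed the adjusted threshold, for its level or its share, under any alternative that gave it an adjusted p, and neither did BIRC6 as a whole. DESeq2 gave none for 8 of the 13 circles. The 3 share differences kept their direction under every alternative run for them. Those were leaving out libraries and keeping only circles above 0 in all 6 libraries. For the leading circle, leaving out libraries could not have turned the direction, since every control share lay above every cadmium share. Leaving out 1 library at a time gave -7.23 to -4.41 percentage points for the leading circle, -11.8 to -4.66 for the circles from exon 2 and 0.00864 to 0.0219 for BIRC6 among all junction reads. Over all features, leaving out 1 library moved the number past the threshold from 5 to between 0 and 13 circRNAs (416 at an unadjusted p under 0.05 by edgeR for the 0), from 7 to between 3 and 13 host genes and from 1 to between 0 and 6 for circle shares (106 to 157 at an unadjusted p for the zeros). Without control replicates 1 and 3 these numbers were 3, 3 and 4. The number for shares was 3 with no low-count filter, 0 with 10 reads in 3 libraries (55 at an unadjusted p under 0.05 by edgeR) and 0 with the replicate block (110). Limma on log2(TPM + 1) gave 4 host genes. With the replicate number as a block 4 circRNAs and 6 host genes passed. Deviations of same-numbered libraries correlated at 0.00020, 0.022 and 0.052, and those of control replicates 1 and 2 correlated more with another number. Differently numbered libraries correlated at -0.045 to 0.026. All these values are near 0, so they cannot decide whether the numbers pair the libraries. The block changed no call for BIRC6.

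Of 516 values of single circles and genes under the alternatives, 20 had the opposite sign, 16 with 1 library left out and 4 without control replicates 1 and 3. None of these had passed the test. The 4 were hsa_circ_0053442 (-0.58, and -0.61 for its share), BIRC2 (-0.12) and KIF23 (-0.065). With 1 library left out, log2 fold changes ranged from -0.90 to 0.15 for hsa_circ_0007337, from -0.054 to 1.76 for hsa_circ_0053442 and from -0.77 to 0.21 for novel_circ_0024260. For shares they ranged from -0.036 to 0.61 for hsa_circ_0003288, -0.94 to 0.15 for hsa_circ_0007337, -0.14 to 1.67 for hsa_circ_0053442 and -0.76 to 0.11 for novel_circ_0024260. For host genes they ranged from -0.62 to 0.38 for BCL2, -0.057 to 0.10 for BIRC2, -0.016 to 0.15 for KIF23, -0.28 to 1.18 for TRAF2 and -0.57 to 0.12 for USP8. The cause was not tested. Reads per circle and library, at most 56, limit what these data can show.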

Other observations

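The deposited spliced length of novel_circ_0024275 is 134 bases, that of exon 44 alone, although the circle ends on the bound of exon 49. From exon 44 to exon 49 it spans 6 exons with 1293 annotated bases in all. For novel_circ_0024304 it is 542 bases against 782 over all annotated exons from 69 to 73. In the other 21 BIRC6 circles the deposited length equals that of all annotated exons between the bounds.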
